A study of Saccharomyces cerevisiae with 30 samples.

Results

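The genes described here encode 9 subunits of the yeast SWR1 complex (SWR1, SWC3, SWC5, SWC7, VPS71, VPS72, ARP6, RVB1 and RVB2) and the histone variant that the complex deposits, HTZ1. They were chosen by gene symbol in the authors' comparison table for time point 2 and joined by gene identifier to the count table, which gave 10 of 7127 features, and all 10 passed the filter on low counts. RNA was sequenced from budding yeast of the CEN.PK122-alpha background in a chemostat. The series holds W89A, whose genotype is yaf9W89A (an alanine in place of a tryptophan in Yaf9), and WT, the wild type. Both strains were grown to starvation in rich medium with a constant oxygen supply and then fed low glucose, which sets off the yeast metabolic cycle, an oscillation of oxygen use and gene expression. Libraries were made at 5 time points of 3 consecutive cycles, 15 libraries per strain and 3 per strain and time point. The replicate is therefore a cycle, no separate cultures or clones are stated, and the p-values measure the spread between cycles at a time point. The main fit has no term for the cycle and takes libraries of the same cycle as independent. The p-values of averages over time points make no allowance for a shared cycle and may overstate the replication. A difference between strains and a difference between their cultures cannot be told apart.

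The SWR1 complex is a chromatin remodeler. Its Swr1 ATPase opens a nucleosome next to a promoter and exchanges an H2A-H2B dimer for one that holds Htz1, the yeast H2A.Z. Yaf9, the protein altered in W89A, is a subunit with a YEATS domain, a fold that binds acetylated histone tails, and it is shared with the NuA4 acetyltransferase. Rvb1 and Rvb2 are AAA+ ATPases that form a ring and also serve in the INO80 remodeler and in the R2TP chaperone complex.

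Library totals ran from 16540627 to 20260295 counts, and levels are given as CPM, counts scaled to the TMM-normalized library size. Time points follow the authors' comparison tables, in which 2 W89A libraries of cycle 1 stand exchanged relative to the number order of their titles. YAF9, whose substitution a count of reads cannot show, had a mean of 24.1 CPM in W89A and 25.9 CPM in WT (log2 fold change -0.09 ± 0.06 SE, edgeR adjusted p = 0.275). In these bulk samples a change in the share of cells in one state and a change of RNA per cell cannot be told apart.

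Averaged over the 5 time points, SWR1, VPS72 and RVB1 were higher in W89A and SWC5 was lower. SWR1, the catalytic ATPase and scaffold, was 1.64-fold higher, with a log2 fold change of 0.71 ± 0.06 (SE) and an adjusted p of 5.22e-09 (edgeR quasi-likelihood test, Benjamini-Hochberg over 6256 genes). VPS72, whose protein (Swc2) binds Htz1-H2B dimers, rose by 0.36 ± 0.05 (adjusted p = 5.14e-06), and RVB1 by 0.15 ± 0.05 (adjusted p = 0.0198). The RVB1 log2 fold changes at time points 1 to 5 were -0.06, -0.13, 0.68, 0.15 and 0.12, and only time point 3 passed. Its average therefore rests mainly on that time point. The RVB1 average did not pass in title order (edgeR adjusted p = 0.128), with the most abundant genes left out of the scaling (0.0579), without cycle 1 of WT (0.0531) or without cycle 3 of WT (0.0942). SWC5, a subunit needed for histone exchange, fell by 0.35 ± 0.08 (adjusted p = 0.000768). The remaining 6, HTZ1 among them, did not pass. These 4 of 10 members stand beside 48.8% of all genes tested that passed the same test, 27.1% higher and 21.7% lower, so that the number of calls was no larger than the background. The median log2 fold change was 0.07 over the members and 0.02 over all genes, and the median of its size was 0.115 over the members and 0.190 over all genes.

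**Figure D1:**
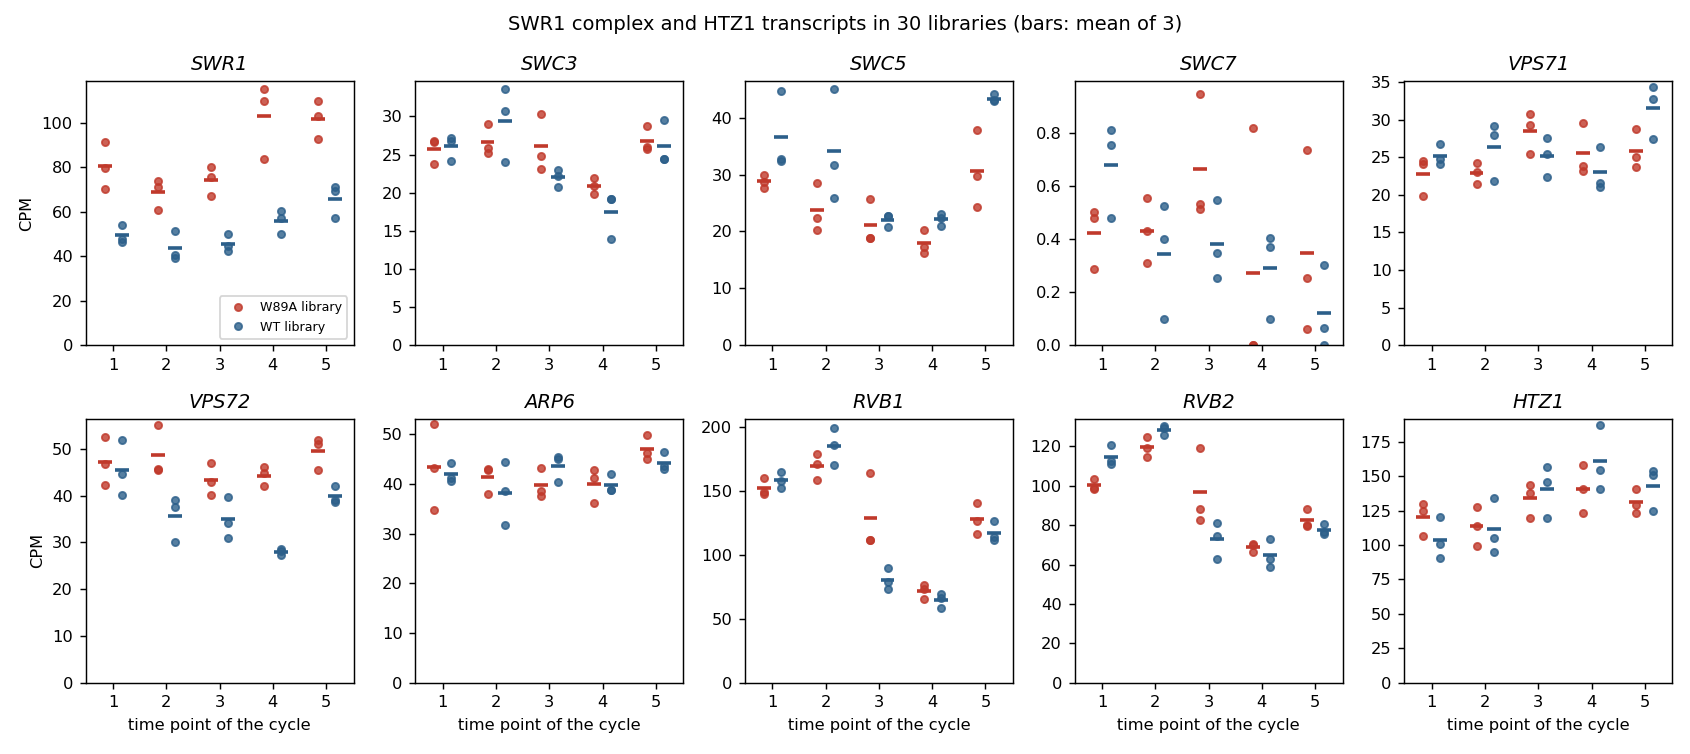
Each panel plots 1 gene, with the time point of the cycle on the horizontal axis and CPM on the vertical axis; each point is 1 library, W89A in red left of WT in blue, and bars are means of 3 libraries. SWR1 is higher in every W89A library than in any WT library of the same time point, while HTZ1, VPS71 and ARP6 overlap throughout.

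SWR1 was the member with the lowest p and the one whose strains did not overlap at any time point. SWR1 measured 70.3, 91.3 and 79.9 CPM in the W89A libraries of time point 1 (cycles 1 to 3), against 46.4, 47.9 and 54.2 CPM in WT. It measured 71.3, 61.0 and 74.0 CPM in W89A at time point 2, against 40.6, 51.3 and 39.2 CPM in WT. Time point 3 gave 75.7, 80.2 and 67.3 CPM in W89A and 42.5, 44.6 and 50.1 CPM in WT. The lowest W89A library thus stood above the highest WT library at each of these time points, and the same held at the later ones. Time point 4 gave 115, 110.1 and 83.7 CPM in W89A and 50.02, 57.1 and 60.5 CPM in WT. Time point 5 gave 109.8, 103 and 93.0 CPM in W89A and 57.1, 71.0 and 69.2 CPM in WT. All W89A libraries stood above all WT libraries at all 5 time points in 0.623% of the genes tested, and all below in 0.751%. The log2 fold changes at time points 1 to 5 were 0.70, 0.65, 0.70, 0.88 and 0.63, with edgeR adjusted p = 0.00423, 0.00231, 9.84e-05, 0.000185 and 0.00608. The strain difference did not change detectably between time points (interaction adjusted p = 0.76), a test that 3 of 10 members and 41.9% of all genes passed. The sign was the same at all 5 time points for SWR1, VPS72 and SWC5, as for 24.2% of all genes. By the average SWR1 ranked 184 from the highest of 6256 genes.

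At single time points 1 to 4 members were called. SWR1 alone passed at time point 1 (1 of 10, against 8.01% of all genes, 4.41% higher and 3.6% lower) and at time point 5 (1 of 10, against 9.51%, 5.07% higher and 4.44% lower). At time point 2 SWR1 and VPS72 were higher and SWC5 was lower (3 of 10, against 13.1%, 8.44% higher and 4.64% lower). Time point 3 had 4 members higher, SWR1, VPS72, RVB1 and RVB2 (4 of 10, against 51.1%, 28.2% higher and 22.9% lower), and time point 4 had SWR1 and VPS72 higher (2 of 10, against 21.3%, 10.9% higher and 10.5% lower). In the authors' deposited tables, at the same threshold on their adjusted p, 1, 2, 2, 2 and 1 members were higher at time points 1 to 5 and 1 was lower, SWC5 at time point 5. The SWR1 call at time point 1 was lost without cycle 2 of W89A (adjusted p = 0.0632), and the one at time point 5 without cycle 1 of WT (0.0548) or cycle 1 of W89A (0.0611), in edgeR.

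**Figure D2:**
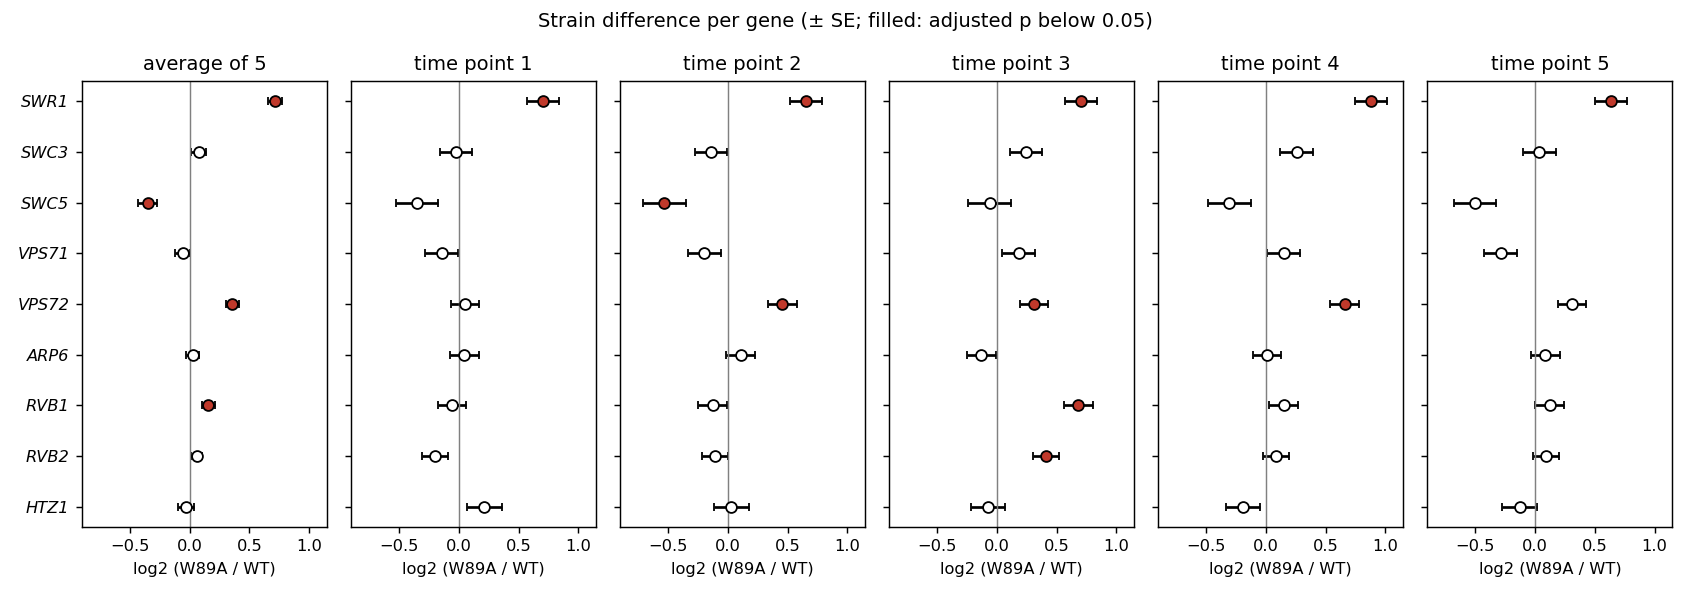
Log2 fold change of W89A over WT on the horizontal axis for 9 members, as an average of the 5 time points and at each of them; bars are the standard error, and filled points passed an adjusted p of 0.05. SWC7, with 0 to 18 counts per library, is left out because its error is too wide for the axis. SWR1 lies to the right of 0 in all 6 panels and SWC5 to the left.

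SWR1 lies on chromosome IV of the yeast R64 genome (4545 bases on the plus strand, starting at 1135932). It overlaps no other feature of the files, and its nearest neighbours, RQC1 and MSN5, start or end 500 and 691 bases away. MSN5 had a log2 fold change of 0.01 ± 0.04 (adjusted p = 0.843) and RQC1 rose by 0.12 ± 0.04 (edgeR adjusted p = 0.0205), against 0.71 for SWR1. The window of 250 bases before and 50 bases from the start codon of SWR1 (chrIV:1135682-1135981, plus strand), read from the RefSeq R64 genome, is shown because SWR1 has the lowest p, and that of SWC5 (chrII:683041-683340, minus strand) because it went the other way. Capitals mark AAAATTT, the core of the RRPE element, which stands 59 bases before the SWR1 start codon. SWC5 holds none of the motifs searched.
SWR1: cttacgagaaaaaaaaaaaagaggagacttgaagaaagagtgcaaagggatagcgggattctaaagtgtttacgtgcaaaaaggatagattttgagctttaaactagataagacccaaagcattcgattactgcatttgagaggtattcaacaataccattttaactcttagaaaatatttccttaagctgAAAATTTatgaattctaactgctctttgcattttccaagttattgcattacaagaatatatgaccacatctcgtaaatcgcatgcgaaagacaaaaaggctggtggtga
SWC5: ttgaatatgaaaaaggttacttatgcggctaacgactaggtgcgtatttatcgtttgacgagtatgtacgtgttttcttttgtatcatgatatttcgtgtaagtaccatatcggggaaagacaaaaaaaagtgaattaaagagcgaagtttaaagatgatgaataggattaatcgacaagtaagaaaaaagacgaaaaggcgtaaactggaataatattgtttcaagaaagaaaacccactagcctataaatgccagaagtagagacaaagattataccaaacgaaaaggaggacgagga

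SWC5, whose protein binds H2A-H2B dimers, was the only member called lower, as an average and at time point 2. SWC5 measured 29.98, 28.7 and 27.7 CPM in W89A at time point 1, against 32.7, 32.5 and 44.7 CPM in WT. The levels at time point 2 were 20.3, 22.3 and 28.4 CPM in W89A, against 25.9, 31.7 and 45.0 CPM in WT. Time point 3 gave 18.9, 18.9 and 25.8 CPM in W89A and 20.8, 22.7 and 22.7 CPM in WT. The groups overlapped at time points 2 and 3 and not at time point 1, where the strains fail to overlap in 35.2% of all genes. SWC5 then measured 16.2, 20.3 and 17.2 CPM in W89A at time point 4, against 22.4, 23.1 and 20.98 CPM in WT, and 29.7, 24.4 and 37.8 CPM in W89A at time point 5, against 42.9, 43.1 and 44.1 CPM in WT. All W89A libraries lay below all WT libraries at these last time points, where the strains fail to overlap in 35% and 35.9% of all genes. The call at time point 2 was at the threshold (log2 fold change -0.53 ± 0.18 SE, adjusted p = 0.049). It was lost in 8 of 15 alternative fits, with adjusted p up to 0.322 and a log2 fold change of -0.28 without cycle 3 of WT, whose library was the highest of its group. At time point 5 the log2 fold change was -0.50 ± 0.18 (edgeR adjusted p = 0.0675), and the authors' deposited table gives -0.51 with an adjusted p of 0.0209. SWC5 changed over the cycle in both strains, with its highest mean at time point 5 (W89A adjusted p = 0.00205, WT adjusted p = 1.88e-05). In W89A that call was lost with the time points in title order (adjusted p = 0.404) and without cycle 1 of W89A (edgeR adjusted p = 0.0638).

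VPS72 was higher in W89A at time points 2, 3 and 4, and not called at time points 1 and 5. VPS72 measured 42.3, 46.7 and 52.5 CPM in W89A at time point 1, against 44.6, 51.9 and 40.1 CPM in WT. Time point 2 gave 45.7, 45.4 and 55.0 CPM in W89A and 37.5, 39.1 and 29.99 CPM in WT. Time point 3 gave 42.9, 40.2 and 47.0 CPM in W89A and 34.1, 39.7 and 30.8 CPM in WT. The strains overlapped at time point 1, and from time point 2 on every W89A library was above every WT library, where the strains fail to overlap in 32.9%, 59.8%, 35% and 35.9% of all genes. VPS72 measured 42.0, 46.0 and 44.7 CPM in W89A at time point 4, against 28.6, 28.2 and 27.2 CPM in WT. The last time point gave 45.4, 51.8 and 51.0 CPM in W89A and 38.6, 42.0 and 39.1 CPM in WT. The log2 fold changes were 0.05, 0.46, 0.31, 0.66 and 0.31 at time points 1 to 5 (edgeR adjusted p = 0.822, 0.0128, 0.0284, 0.000699 and 0.0927). The call at time point 2 was lost in 4 of 15 alternative fits, without cycle 1 or 3 of WT, without cycle 3 of W89A and with the 6 libraries of the time point alone (edgeR adjusted p up to 0.0781). That at time point 3 was lost in 8 of 15, with either other scaling among them (adjusted p up to 0.22, without cycle 3 of WT, where the log2 fold change was 0.19). With the most abundant genes left out of the scaling it was 0.19 (edgeR adjusted p = 0.182), and relative to the median of all genes it was 0.24 under all 3 scalings. The strain difference changed between time points (interaction adjusted p = 0.045), a call at the threshold that was lost in 8 of 15 alternative fits (adjusted p up to 0.174). In WT the level changed over the cycle, with a highest mean of 45.6 CPM at time point 1 and a lowest of 28.02 CPM at time point 4 (adjusted p = 0.000125). In W89A the means stayed between 43.3 and 49.4 CPM and the test over the cycle did not pass (adjusted p = 0.454).

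The ring ATPases RVB1 and RVB2 had the largest swings over the cycle of the members other than the sparsely counted SWC7, RVB2 only narrowly above SWC5. Both ring ATPases differed between strains at time point 3. In W89A the RVB1 libraries held 149, 159.7 and 147 CPM at time point 1, 159, 179 and 171 CPM at time point 2, 111, 112 and 164 CPM at time point 3, 65.7, 73.4 and 76.2 CPM at time point 4 and 141, 126 and 116 CPM at time point 5. In WT they held 164, 152 and 158 CPM at time point 1, 199, 186 and 169.9 CPM at time point 2, 73.3, 89.4 and 78.5 CPM at time point 3, 66.2, 58.7 and 69.1 CPM at time point 4 and 111, 126 and 114 CPM at time point 5. Both strains were highest at time point 2 and lowest at time point 4. The range of the log2 means was 1.24 in W89A and 1.52 in WT (adjusted p = 1.96e-08 and 2.83e-11 in edgeR). In title order the 65.7 and 141 CPM of cycle 1 in W89A would be exchanged, and the W89A adjusted p was 0.00456 in edgeR. Only at time point 3 did the strains not overlap, as in 59.8% of all genes there.

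RVB2 was also highest at time point 2 and lowest at time point 4 in each strain. From time point 4 to 5 RVB1 rose by 0.83 ± 0.12 in W89A and by 0.86 ± 0.12 in WT (edgeR adjusted p = 6.44e-06 and 3.52e-06). RVB2 had 0.26 ± 0.11 in W89A and 0.25 ± 0.11 in WT and did not pass (edgeR adjusted p = 0.0634 and 0.068). The W89A values depend on the exchanged libraries of cycle 1. In title order their RVB1 levels, 65.7 CPM at time point 4 and 141 CPM at time point 5, would trade places. In cycles 2 and 3 of W89A RVB1 went from 73.4 to 126 and from 76.2 to 116 CPM. The RVB2 libraries of W89A held 98.4, 103 and 98.9 CPM at time point 1, 119, 125 and 115 CPM at time point 2, 82.7, 88.4 and 119 CPM at time point 3, 70.6, 66.3 and 69.7 CPM at time point 4 and 88.1, 80.3 and 79.5 CPM at time point 5. Its WT libraries held 121, 111 and 112 CPM at time point 1, 130.4, 126 and 129 CPM at time point 2, 62.9, 81.0 and 74.2 CPM at time point 3, 72.8, 63.0 and 58.8 CPM at time point 4 and 80.5, 76.4 and 75.3 CPM at time point 5. W89A lay wholly below WT at time points 1 and 2, where the strains fail to overlap in 35.2% and 32.9% of all genes, and wholly above it at time point 3. The range of the log2 means was 0.79 in W89A and 0.99 in WT (adjusted p = 4.61e-06 and 4.16e-09 in edgeR). That of SWC5 was close, at 0.75 in W89A and 0.97 in WT.

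At time point 3 RVB1 rose in W89A by 0.68 ± 0.12 on the log2 scale (adjusted p = 4.49e-05) and RVB2 by 0.41 ± 0.11 (edgeR adjusted p = 0.00251), and at the other time points neither passed. The strain difference changed between time points for RVB1 (interaction adjusted p = 0.00295) and RVB2 (0.018), but not without cycle 1 of WT (0.0613 and 0.117), and for RVB2 also not without cycle 3 of WT (0.114), without cycle 3 of W89A (0.141) or with the most abundant genes left out of the scaling (0.0517), in edgeR. In both genes the W89A library of cycle 3 at time point 3 was far above the other W89A libraries. Without cycle 3 of W89A the values at time point 3 were 0.47 for RVB1 (adjusted p = 0.000753) and 0.23 for RVB2 (adjusted p = 0.0735), so the RVB2 call rested on that cycle. RVB2 also missed the threshold with the 6 libraries of time point 3 alone (edgeR adjusted p = 0.102) and in the authors' deposited table (adjusted p = 0.112). Scaling moved this time point: with TMM factors computed without the mitochondrial genome and the 10 genes of highest abundance, the median over all genes was -0.05, against 0.08, a shift of -0.13, and the genes called split into 1398 higher and 1837 lower, against 1767 higher and 1430 lower. Relative to the median of all genes, RVB1 was higher by 0.60 and RVB2 by 0.33 with that other scaling, and RVB1 by 0.60 with the scaling used here. Across 5089 genes that changed over the WT cycle, members left out, the W89A means of time point 3 correlated with WT time point 2 at r = 0.622 and with WT time point 3 at r = 0.053, as a description over genes of the same libraries. RVB1 averaged 129 ± 30.1 CPM in W89A at time point 3, which lies between the WT means of 185 ± 14.8 CPM at time point 2 and 80.4 ± 8.18 CPM at time point 3 (SD, n = 3 each). The part of this difference in matching time points in the RVB1 and RVB2 result was not tested.

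**Figure D3:**
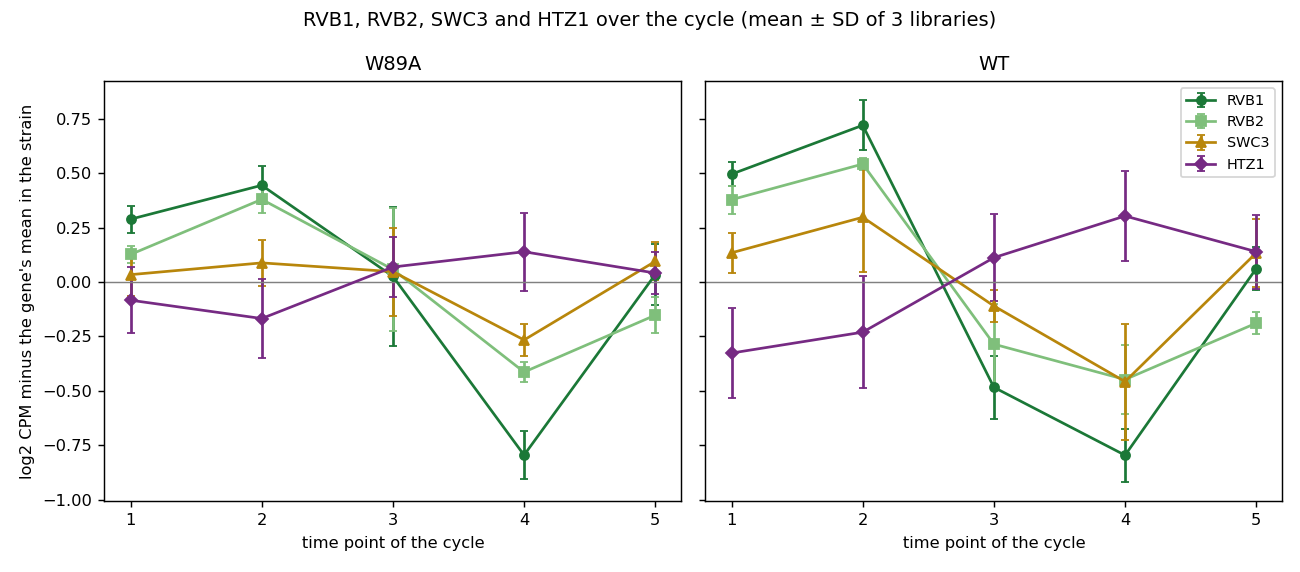
Log2 CPM minus the gene's mean in that strain (vertical axis) over the 5 time points (horizontal axis) for RVB1, RVB2, SWC3 and HTZ1, with W89A on the left and WT on the right; points are means of 3 libraries and bars the SD. RVB1, RVB2 and SWC3 have their lowest mean at time point 4 in both strains, where HTZ1 has its highest.

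The start regions of RVB1 (chrIV:841946-842245, minus strand) and RVB2 (chrXVI:102982-103281, plus strand) are shown because both genes were called at time point 3 and had their highest mean at time point 2. Each runs from 250 bases before the start codon to 50 bases from it on R64. Capitals mark CACGTG (the E-box), CGGGTAA (the Reb1 site TTACCCG on the other strand), CCCCT (the stress response element) and AAAATTT. In RVB1 the E-box begins 182 bases before the start codon, the Reb1 letters 171, the stress element 214 and the RRPE core 150, where overlapping matches on both strands give AAAATTTT. In RVB2 the E-box begins 206 bases before the start codon.
RVB1: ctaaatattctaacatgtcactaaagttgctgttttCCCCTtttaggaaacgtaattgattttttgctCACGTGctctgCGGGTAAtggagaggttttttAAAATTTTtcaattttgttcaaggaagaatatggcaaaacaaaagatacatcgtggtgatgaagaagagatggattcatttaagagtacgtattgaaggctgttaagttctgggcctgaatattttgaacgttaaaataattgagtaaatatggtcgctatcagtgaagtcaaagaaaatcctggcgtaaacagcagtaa
RVB2: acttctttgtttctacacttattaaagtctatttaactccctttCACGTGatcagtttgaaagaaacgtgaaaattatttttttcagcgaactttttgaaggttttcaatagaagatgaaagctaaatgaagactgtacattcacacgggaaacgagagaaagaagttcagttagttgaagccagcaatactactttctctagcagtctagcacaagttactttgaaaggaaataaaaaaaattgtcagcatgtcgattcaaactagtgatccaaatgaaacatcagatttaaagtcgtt

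Among 6001 windows of that length on R64, searched on both strands, the E-box stood in 2.92% and in 3 of the 9 subunit genes, RVB1, RVB2 and ARP6. It was added to the search after the sequences had been read. The Reb1 letters stood in 7.08% of windows and in RVB1 and VPS71, AAAATTT in 23.2% and in SWR1 and RVB1, and CCCCT in 21.6% and in RVB1 and SWC7. PAC (GATGAG) stood in 20.4% of windows and in VPS72, where it spans the start codon. The MCB element (ACGCGT) stood in 3.07% and in 0 of the 9. These matches are descriptions of letters, not of binding.

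HTZ1 did not differ between strains in any test and moved over the WT cycle in the opposite sense to RVB1 and RVB2. HTZ1 measured 130.1, 125 and 107 CPM in W89A at time point 1, against 120.4, 100.4 and 90.8 CPM in WT. Time point 2 gave 114, 128 and 99.5 CPM in W89A and 134, 105 and 94.9 CPM in WT. Time point 3 gave 138, 144 and 119.6 CPM in W89A and 157, 119.7 and 146 CPM in WT. The strains overlapped at all of these. HTZ1 measured 141, 158 and 124 CPM in W89A at time point 4, against 187, 141 and 155 CPM in WT. Time point 5 gave 129, 141 and 123 CPM in W89A and 154, 125 and 151 CPM in WT. Cycle 1 held the highest WT library at every time point, and cycle 3 the lowest W89A library. The average log2 fold change was -0.03 ± 0.06 (edgeR adjusted p = 0.737), and the sign changed without cycle 1 of WT (0.08) and without cycle 3 of W89A (0.05). In WT the highest mean, 161 ± 23.6 CPM at time point 4, and the lowest, 104 ± 15.1 CPM at time point 1 (SD, n = 3 each), gave a log2 range of 0.63 (adjusted p = 0.00123). In W89A the range was 0.31 and the test over the cycle did not pass (adjusted p = 0.284). The interaction did not pass either (adjusted p = 0.43), so the smaller swing in W89A is not shown to differ from that in WT. Over the 10 group means of log2 CPM, HTZ1 correlated at r = -0.932 with RVB2, -0.874 with RVB1 and -0.751 with SWC3, against 0.943 between RVB1 and RVB2 and 0.922 between SWC3 and RVB1. All these means come from the same 30 libraries, and no p is given.

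Of the 10 members, 4 changed over the cycle in W89A (SWR1, SWC5, RVB1 and RVB2), against 75.5% of all genes, and 8 in WT, all but SWC7 and ARP6, against 81.5% of all genes. Of SWC3, VPS71, VPS72 and HTZ1, which passed in WT only, VPS72 alone passed the interaction (edgeR adjusted p = 0.045). The log2 range of the group means had a median of 0.47 over the members and 0.93 over all genes in W89A, and of 0.72 and 1.04 in WT. A range of at least 1 was reached by RVB1 and the sparsely counted SWC7 in each strain, against 46.6% of all genes in W89A and 52.2% in WT. The W89A range of RVB1 has its low end at time point 4, which holds a library of disputed order. SWR1 was lowest at time point 2 in both strains. Its W89A means at time points 4 and 5, which hold the libraries of disputed order, were 103 ± 16.9 and 102 ± 8.51 CPM and could not be separated (edgeR adjusted p = 0.956), and its highest WT mean was 65.8 ± 7.57 CPM at time point 5 (SD, n = 3 each). Its range was 0.57 in W89A and 0.59 in WT (adjusted p = 0.000414 and 0.00137 in edgeR). SWC3, a non-catalytic subunit, had its lowest mean at time point 4 in both strains, 20.9 ± 1.08 CPM in W89A and 17.5 ± 3.04 CPM in WT (SD, n = 3 each). SWC3 changed over the cycle in WT (range 0.75, adjusted p = 0.000191), while the W89A test did not pass (range 0.36, adjusted p = 0.096). Its interaction did not pass either (edgeR adjusted p = 0.286), so its course is not shown to differ between strains. SWC3 libraries of W89A lay wholly above those of WT at time points 3 and 4, where the edgeR adjusted p was 0.131 and 0.181 and where the strains fail to overlap in 59.8% and 35% of all genes.

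Most neighbours in the order of a gene's mean levels could not be separated. Of all such neighbouring pairs in the 2 strains, 21.1% passed over all genes, and among the members 7 did, a smaller share. In W89A SWR1 was higher at time point 5 than at 1 (edgeR adjusted p = 0.0401), and RVB1 at 3 than at 4 (1.34e-06). Both of these W89A pairs use a time point that holds a library of disputed order. In title order the RVB1 library of cycle 1 at time point 4 would have 141 CPM instead of 65.7 CPM. In WT SWC5 was higher at time point 2 than at 4 (0.00272), RVB1 at 1 than at 5 (0.00304) and at 5 than at 3 (0.000706), RVB2 at 1 than at 5 (7.07e-05) and HTZ1 at 3 than at 2 (0.0462), as edgeR adjusted p. The other orderings are those of the means only.

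VPS71 and ARP6, whose proteins bind each other within the complex, did not pass any test between the strains. VPS71 averaged 25.1 ± 3.14 CPM in W89A and 26.2 ± 3.93 CPM in WT (SD, n = 15 libraries each), with a log2 fold change of -0.06 ± 0.06 (edgeR adjusted p = 0.45). Its lowest, median and highest libraries were 19.8, 24.3 and 30.8 CPM in W89A and 21.04, 26.4 and 34.4 CPM in WT. Its change over the WT cycle passed (adjusted p = 0.039), with a highest mean at time point 5, but was lost in 9 of 16 alternative fits (adjusted p up to 0.211). ARP6 averaged 42.3 ± 4.85 CPM in W89A and 41.6 ± 3.71 CPM in WT, with a log2 fold change of 0.02 ± 0.05 (edgeR adjusted p = 0.738) whose sign changed under 4 of 14 alternatives. ARP6 libraries ran from 34.7 to 52.1 CPM in W89A and from 31.8 to 46.4 CPM in WT, and its group means did not change over the cycle in W89A (adjusted p = 0.3) or WT (adjusted p = 0.419). The strains of both genes overlapped at every time point. SWC7 had 0 to 18 counts per library, and 2 W89A libraries of time point 4 and 1 WT library of time point 5 were at 0. At this depth no difference was detectable for SWC7 (log2 fold change 0.38 ± 0.43, edgeR adjusted p = 0.492).

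**Figure D4:**
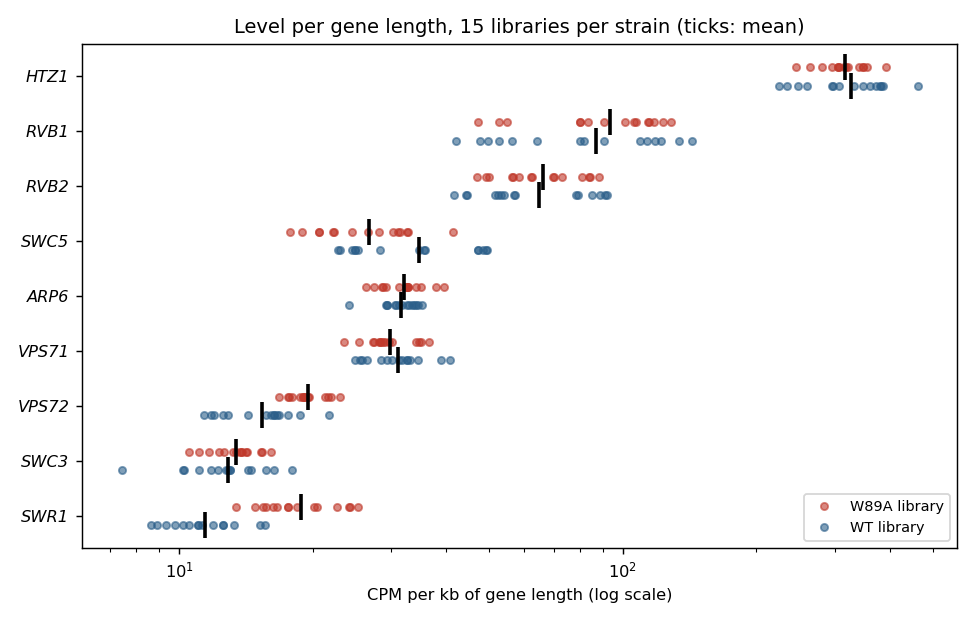
CPM per kilobase of gene length (horizontal axis, log scale) for 9 members, with 15 W89A libraries in red above 15 WT libraries in blue; ticks are means. HTZ1 lies highest and SWR1 and SWC3 lowest, and the SWR1 libraries of W89A are shifted to the right of those of WT.

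Levels of different genes can be compared per length. HTZ1 had the highest level, 316 ± 37.2 CPM per kilobase in W89A and 326 ± 67.2 in WT (SD over 15 libraries each). RVB1 followed with 93.4 ± 26.3 CPM per kilobase in W89A and 87.0 ± 34.2 in WT, and RVB2 with 66.1 ± 13.7 in W89A and 64.7 ± 18.7 in WT, both of them shared with other complexes. The subunits other than RVB1, RVB2 and SWC7 lay between 13.4 and 32.1 CPM per kilobase in W89A and between 11.5 and 34.7 in WT. SWR1 had 18.9 ± 3.78 CPM per kilobase in W89A, close to VPS72 with 19.5 ± 1.79. In WT SWR1 had 11.5 ± 2.10 and VPS72 15.4 ± 2.90 CPM per kilobase, and SWR1 was the lowest of the members other than SWC7. SWC7 had 1.07 ± 0.711 CPM per kilobase in W89A and 0.911 ± 0.601 in WT.

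Ratios of counts within a library do not depend on the scaling between libraries. The log2 ratio of SWR1 to HTZ1 counts averaged -0.60 ± 0.25 in W89A and -1.33 ± 0.34 in WT (SD, n = 15 each). The difference of 0.74 was positive at 5 of 5 time points (0.48 to 1.06; permutation of strain labels within time points, 100000 resamples, 2-sided, p = 1e-05, the smallest they can give, adjusted p = 1.5e-05 over 3 ratios). The log2 ratio of SWR1 to SWC5 averaged 1.82 ± 0.47 in W89A and 0.76 ± 0.44 in WT, a difference of 1.06 that was positive at 5 of 5 time points (0.77 to 1.18; permutation adjusted p = 1.5e-05). These pairs were chosen with the SWR1 and SWC5 results known and are not independent evidence. All permutations shuffled labels separately at each time point and so took libraries of the same cycle as independent. In WT the SWR1 to HTZ1 ratio was lowest in cycle 1 at every time point. The permutation p-values make no allowance for this and overstate the replication, which is by cycle. RVB1 to RVB2 averaged 0.44 ± 0.23 in W89A and 0.35 ± 0.26 in WT. That difference of 0.09 was positive at 4 of 5 time points (permutation adjusted p = 0.0341) and did not pass with the time points in title order (adjusted p = 0.246), without cycle 1 of WT (0.0945), without cycle 2 of W89A (0.107) or without cycle 3 of W89A (0.0926).

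**Figure D5:**
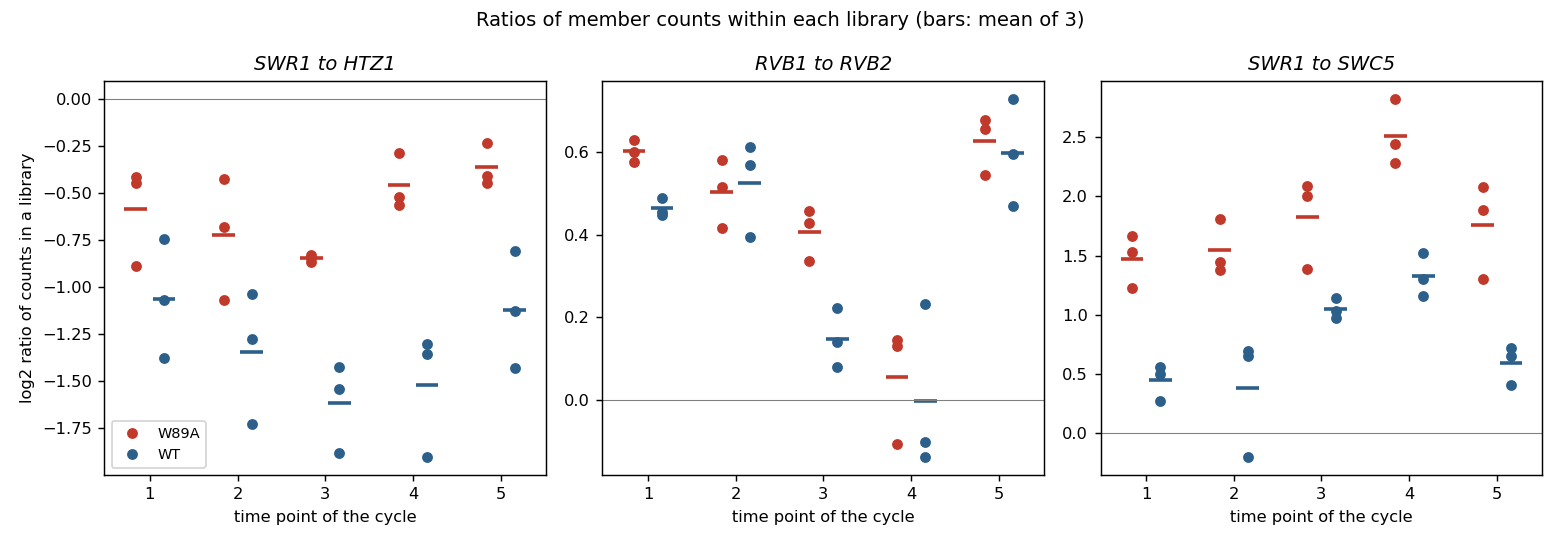
Log2 ratio of the counts of 2 members within each library (vertical axis) by time point (horizontal axis), with W89A in red left of WT in blue; bars are means of 3 libraries. The SWR1 to SWC5 ratio of every W89A library lies above every WT library of the same time point, while RVB1 to RVB2 overlaps at time points 2, 4 and 5.

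Partner genes of the complex showed both directions. Of the 5 other subunit genes (YAF9, SWC4, BDF1, ARP4 and ACT1), 2 were higher as an average, SWC4 by 0.22 ± 0.06 (adjusted p = 0.0028) and BDF1, a bromodomain protein, by 0.32 ± 0.05 (edgeR adjusted p = 1.41e-05). Of 11 genes of INO80, which shares RVB1 and RVB2, 4 were higher and 3 lower, among them ARP5 at 0.34 ± 0.04 (adjusted p = 1.27e-06), IES1 at 0.36 ± 0.07 (6.69e-05), IES4 at -0.23 ± 0.06 (0.0027) and IES5 at -0.12 ± 0.05 (edgeR adjusted p = 0.0442). IES5 kept its call in 6 of 14 alternative fits. Of 3 chaperones and importers of Htz1 and H2A, 2 were lower, NAP1 at -0.25 ± 0.05 (adjusted p = 0.000113) and CHZ1, an Htz1 chaperone, at -0.23 ± 0.06 (edgeR adjusted p = 0.00374). Of the 4 genes of canonical H2A and H2B, HTB1 (-0.32 ± 0.07, adjusted p = 0.000843) and HTA1 (-0.31 ± 0.10, adjusted p = 0.0102) were lower, HTA1 in 11 of 14 alternative edgeR or DESeq2 fits. Both R2TP partners of Rvb1 and Rvb2 were lower, TAH1 at -0.40 ± 0.07 (adjusted p = 6.27e-05) and PIH1 at -0.22 ± 0.07 (edgeR adjusted p = 0.01, and 12 of 14 alternatives). All these counts are to be read against the 48.8% of all genes called.

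Over the 10 group means of log2 CPM of both strains, genes with at least 10 CPM were compared with each member. Those correlated most with SWR1 were WBP1 (r = 0.959), PTP2 (0.955) and YTA7 (0.943). RVB1 was most like NOP12 (0.992), PXR1 (0.992) and SET1 (0.991), and RVB2 most like TMA46 (0.996), NOP6 (0.994) and PUF4 (0.994). HTZ1 was most like AIM46 (0.967), ORM2 (0.958) and HAP2 (0.95). SWC5 was most like SPP2 (0.976), VPS72 like ENV11 (0.963), SWC3 like MOT1 (0.961), ARP6 like CSH1 (0.931) and VPS71 like CDC23 (0.85). These are descriptions over means of the same 30 libraries. Because both strains enter, r takes in a shared difference between strains as well as the course over the cycle.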

How the data were processed

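The authors deposited whole-number counts of reads per gene for 30 libraries; the counting tool, aligner and annotation are not given in the sources used here, and mm9 (mouse) is the single build named in the submitters' processing notes, though the genes are yeast genes. Per the file headers, the authors' comparison tables hold log2 fold changes and p-values, which were used to take gene symbols, time points and the authors' calls. In them, 60 columns of values per sample were not used. Gene starts and ends equalled R64 for 5889 of 5898 genes, so coordinates and sequences are given on R64. Start regions were searched for the 9 subunit genes; that of HTZ1 is not reported here.

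All libraries entered 1 fit in edgeR 4.0.16 (R 4.3.3) with TMM, filterByExpr and robust quasi-likelihood dispersions, a mean per strain and time point; 6256 genes were tested and 871 features removed. The p-values, 2-sided, were adjusted by Benjamini-Hochberg over the tested genes and called below 0.05. The interaction and the tests over the cycle took 4 contrasts together. Log2 CPM used a prior count of 2, and ratios 0.5 added to each count. The fit and the permutation were tested on simulated data. Alternatives were another assignment of time points, other scalings, no filter, DESeq2 1.42.0, left-out libraries and blocks. The labels tie libraries of 1 cycle within a strain, not between strains. Over all tested genes, deviations of same-cycle libraries within a strain correlated at a median of 0.0448 (-0.247 to 0.394). Single genes can depart from this, and in HTZ1 the same cycle of a strain was extreme at every time point. Within each group no pair of libraries agreed within sampling noise (lowest chi-square per degree of freedom 17.44). Strand was not stated, and no member overlaps another listed feature.

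Besides the members, values are given for at most 2 called genes per direction of each partner list, those with the smallest p. Values are also given for YAF9 and for the genes whose group means correlated most with a member. Those for features next to members were chosen after the data were seen. Members, lists and ratio pairs were chosen with earlier results of these data known.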

Additional observations from a re-analysis of the deposited data

Results flagged for a closer look

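Of the members, 3 had a strain difference that changed between the 5 time points by the test of the difference itself (edgeR, 4 contrasts together, Benjamini-Hochberg over all genes), as did 41.9% of all genes. For RVB1 the adjusted p was 0.00295, and the strains differed at time point 3 (log2 fold change 0.68) and not detectably at the other time points. For RVB2 the adjusted p was 0.018, with 0.41 at time point 3 and -0.20 at time point 1. For VPS72 the adjusted p was 0.045, with 0.66 at time point 4 and 0.05 at time point 1. Without cycle 1 of WT none of the 3 passed (adjusted p = 0.0613 for RVB1, 0.117 for RVB2 and 0.123 for VPS72, in edgeR).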

How the results depend on the processing

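The averages of SWR1 (0.65 to 0.76), VPS72 (0.29 to 0.42) and SWC5 (-0.44 to -0.27) kept their direction and their call in all 14 alternatives, and RVB1 lost its call in 4 of them (adjusted p up to 0.128). The number of members called at time point 5 was 2 with DESeq2, with the replicate block by cycle number and with the 6 libraries of that time point alone, against 1. With 6 libraries alone it was 1 at time point 2, against 3, and 2 at time point 3, against 4. Neighbours called in the order of levels numbered 4 with time points in title order, against 7. The ratio of RVB1 to RVB2 was 0.0928 in title order, with an adjusted p of 0.246. Leaving out a cycle of 1 strain gave 0 to 1 calls at time point 1, 1 to 2 at time point 2, 2 to 4 at time point 3, 0 to 2 at time point 5, 0 to 2 for the interaction, against 3, and 4 to 11 neighbours, and ratios of RVB1 to RVB2 of 0.0811 to 0.111. Averages near 0 changed sign: ARP6 was -0.0128 when scaled without the most abundant genes, -0.00377 without cycle 1 of WT and also below 0 without cycle 3 of either strain. HTZ1 was 0.0776 without cycle 1 of WT and 0.0452 without cycle 3 of W89A, and SWC7, with few counts, -0.819 without cycle 3 of W89A. Without a cycle the range was -0.00377 to 0.0758 for ARP6, -0.0979 to 0.0776 for HTZ1 and -0.819 to 0.729 for SWC7. The cause was not tested. A block within each strain, and pairing by cycle number, changed no other count of members called beyond 1.5 times.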

Other observations

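The nearest features on each side of the 10 members, taken by position in the files, were 20, of which 18 were tested, 5 were higher in W89A and 2 lower as an average (edgeR, Benjamini-Hochberg), against 27.1% higher and 21.7% lower among all genes. The share called was thus no larger than that of all genes, and the features named were picked after their values were seen. ARP6, which did not pass, lies between RAX2, which rose by 0.53 ± 0.08 (adjusted p = 2.91e-06), and SMC4, a condensin subunit, which rose by 0.27 ± 0.05 (edgeR adjusted p = 0.000115). VPS72, which rose, has VPS60 at a distance of 223 bases, which was lower (-0.26 ± 0.05, edgeR adjusted p = 4.81e-05), and VPS52 at 131 bases, with 0.04 ± 0.06 (adjusted p = 0.674). Beside RVB1, SLY1 rose by 0.26 ± 0.04 (edgeR adjusted p = 3.96e-05). The other feature called lower was LSR1, 316 bases from SWC5 and on the same strand. LSR1 had -0.37 ± 0.12 (edgeR adjusted p = 0.0125), and SWC5 itself -0.35.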
